A study of Mus musculus with 4 samples.

Results

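The genes described here are the 5 NF-kB subunit genes Nfkb1, Nfkb2, Rel, Rela and Relb, the inhibitor genes Nfkbia and Nfkbiz, and the feedback and adaptor genes Tnfaip3, Birc3 and Traf1. They were taken by symbol, and all 10 were found once each among the 31054 features of the tables. The mice were C57BL/6 males, 19 months old, and for 1 month had received either BPTES or DMSO, its vehicle. Their kidneys were read by single-cell RNA sequencing in 4 libraries, 2 per treatment. Glutaminase, which turns glutamine into glutamate, is the enzyme that BPTES blocks. All 4 libraries were made by digesting kidney with liberase at 37 °C, sorting on CD45 (the leukocyte surface protein encoded by Ptprc), and mixing 20000 CD45-negative with 9000 CD45-positive cells. No genetic change, transgene or cell line is named for either group.

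NF-kB proteins act as pairs of subunits. In resting cells the pairs are held in the cytoplasm by IkB proteins, and signals from tumor necrosis factor receptors, interleukin-1 receptors, toll-like receptors and antigen receptors release them to the nucleus. The canonical arm uses Rela, Rel and the p50 product of Nfkb1, and the non-canonical arm uses Relb and the p52 product of Nfkb2. Several of the genes that NF-kB switches on restrain it in turn, among them Nfkbia (IkB alpha) and Tnfaip3 (the ubiquitin-editing enzyme A20), so that their transcripts are commonly read together with those of the subunits.

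The promoter windows of 4 of these genes hold letters that NF-kB proteins recognise, and they are shown because they are the members with a kB consensus match before a listed start site. Traf1 has an entry but no match and is not shown. Of the 10 genes, 7 had an entry in the RefSeq promoter table (GRCm38.p6), and Relb, Nfkb1 and Nfkbiz did not. Each line gives the 250 bases before the start site, 5′ to 3′ on the gene's strand, with capitals on matches to the kB consensus, the 10-base site bound by NF-kB, searched on both strands. The windows are chr12:55492648-55492897 on the minus strand for Nfkbia, chr19:46304487-46304736 on the plus strand for Nfkb2, chr11:23770970-23771219 on the minus strand for Rel, and chr10:19015411-19015660 on the minus strand for Tnfaip3.
Nfkbia: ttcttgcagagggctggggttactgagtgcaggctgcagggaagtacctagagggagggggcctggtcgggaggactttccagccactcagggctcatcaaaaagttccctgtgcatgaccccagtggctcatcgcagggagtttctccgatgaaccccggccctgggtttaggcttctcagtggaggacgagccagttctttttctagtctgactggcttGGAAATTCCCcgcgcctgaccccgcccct
Nfkb2: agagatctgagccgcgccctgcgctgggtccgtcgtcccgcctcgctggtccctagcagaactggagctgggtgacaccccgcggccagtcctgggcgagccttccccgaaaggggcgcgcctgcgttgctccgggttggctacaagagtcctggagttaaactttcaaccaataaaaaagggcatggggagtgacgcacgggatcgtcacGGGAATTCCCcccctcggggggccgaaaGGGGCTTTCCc
Rel: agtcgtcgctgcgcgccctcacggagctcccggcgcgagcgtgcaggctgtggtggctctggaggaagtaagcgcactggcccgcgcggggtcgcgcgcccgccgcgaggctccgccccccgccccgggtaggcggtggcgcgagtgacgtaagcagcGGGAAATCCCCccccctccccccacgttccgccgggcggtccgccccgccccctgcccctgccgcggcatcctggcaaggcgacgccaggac
Tnfaip3: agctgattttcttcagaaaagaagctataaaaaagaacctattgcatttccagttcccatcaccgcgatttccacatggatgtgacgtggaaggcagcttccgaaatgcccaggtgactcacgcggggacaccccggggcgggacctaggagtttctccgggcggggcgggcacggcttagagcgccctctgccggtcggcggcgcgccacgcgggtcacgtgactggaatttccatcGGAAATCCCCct
The kB consensus was found in 1643 of 32851 promoter windows of this length (5.00%). A match is a description of the letters and not a shown binding site. The match began 29 bases before the start site in Nfkbia, 11 bases before it in Nfkb2, 92 in Rel (with an overlapping match from 91) and 12 in Tnfaip3. Another match in the Nfkb2 window began 39 bases before the start site. Of the other start sites listed for Nfkb2, 1 had a match, which began 225 bases before it. No match was found in these windows of Traf1, Birc3 or Rela.

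The libraries held between 249881074 and 297947661 UMIs (unique molecular identifiers, each counting 1 captured transcript) in 17907 to 20091 barcodes. After filtering, 12076 and 10849 BPTES cells and 12075 and 11738 DMSO cells were kept. Any pair of libraries shared 90 to 114 barcodes, at most 0.618% of the smaller library. Cells were grouped into classes by marker genes, so that each class name means "like" that type, and the 14 classes in which no library had fewer than 50 cells were compared. Clusters were named only where at least 3 markers of the type were detected, and 7.46% of the cells stayed unnamed. Cells are not replicates: raw UMIs were summed per library and class, and levels are given as CPM (counts per 1e6 UMIs, TMM-scaled within the class). The labels do not say whether the libraries of a group came from separate mice, so the p-values measure only the spread between libraries. In a class sum, fewer cells of a subtype and less RNA per cell cannot be told apart.

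Relb was measured at its higher levels in the leukocyte classes and endothelium, and at its lower levels in the tubule and collecting duct classes. Its mean level was highest in innate lymphoid cells (138 CPM ± 43.3, SD over 4 libraries), followed by dendritic cells (121 ± 38.3), neutrophils (110 ± 17.9), B cells (99.7 ± 4.98), T cells (91.1 ± 31.9), endothelium (79.0 ± 9.70), monocytes (77.1 ± 17.2), macrophages (71.5 ± 18.1) and cycling cells (66.2 ± 18.7). The libraries of each class in that order overlapped those of the next. Principal cells came next (24.6 ± 10.9), with no overlap with cycling cells, and proximal tubule was lowest (2.76 ± 0.888). These levels are descriptions, since the clusters were made from the same genes.

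**Figure D1:**
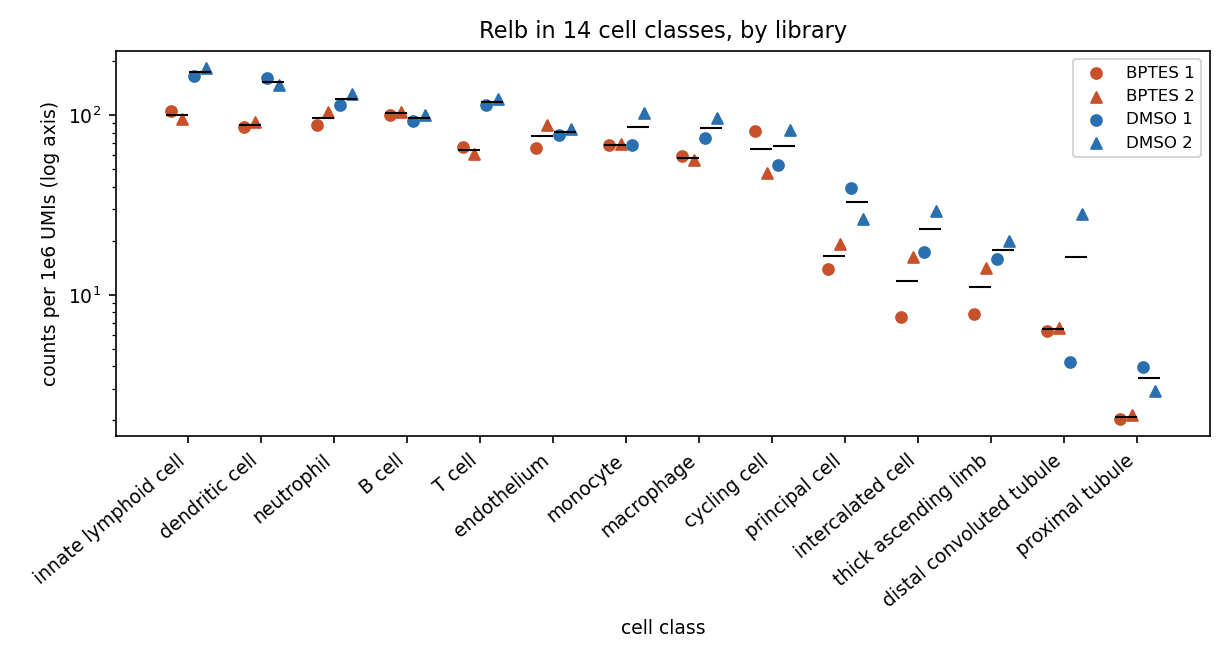
Relb level (counts per 1e6 UMIs, log axis) in 14 cell classes, ordered by mean. Each point is 1 library (circles replicate 1, triangles replicate 2) and each bar the mean of a group. Both BPTES points lie below both DMSO points in 9 classes, among them T cells, dendritic cells and innate lymphoid cells. Of all tested pairs of gene and class, 23.8% were so. The tubule classes lie lowest.

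Innate lymphoid cells also led for 3 other members, Nfkb1, Nfkb2 and Tnfaip3. Nfkb1, which encodes p105 and its product p50, was highest in innate lymphoid cells, where it ranged from 2083 to 3672 CPM, and the next class, dendritic cells, ranged from 560 to 694 CPM. Nfkb2, the precursor of p52, was highest in innate lymphoid cells (58.4 CPM ± 19.8, SD, n = 4), and their libraries overlapped those of B cells (54.9 ± 8.16). Rel, the lymphoid subunit c-Rel, was highest in B cells (723 ± 137), with libraries that overlapped those of dendritic cells. Rela, the widely used p65 subunit, had its highest mean in endothelium (66.2 ± 2.61), and those libraries overlapped the ones of innate lymphoid cells (61.9 ± 7.40).

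The inhibitor genes were highest in neutrophils. Nfkbia reached 2524 CPM ± 680 there (SD, n = 4), and Nfkbiz (IkB zeta, a nuclear IkB) reached 1138 ± 131. Neutrophils also led for Birc3, an apoptosis inhibitor and ubiquitin ligase of the tumor necrosis factor receptor complex (744 ± 68.1), with libraries that overlapped those of innate lymphoid cells. Tnfaip3 was highest in innate lymphoid cells (1097 ± 157) with T cells next (574 ± 73.4), and the libraries of these classes did not overlap. Traf1, a signaling adaptor induced by NF-kB, was highest in dendritic cells (180 ± 37.9), with libraries that overlapped those of T cells. All 10 genes were lowest in proximal tubule.

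The level of Traf1 in proximal tubule was 0.417% of that in the sum of CD45-positive classes. Of 53 leukocyte marker genes, 33 stood at the same or a higher share there, and the median of the 53 was 0.474%. The Traf1 counts in proximal tubule can therefore not be told apart from background RNA of leukocytes. Relb stood at 3.13%, Nfkbiz at 3.73% and Rela at 18.8% in proximal tubule. Of the 53 markers, 6 stood at the same or a higher share for Relb, 6 for Nfkbiz and 2 for Rela. The part of background RNA in the counts of these genes was not tested. Rel (1.14%) and Tnfaip3 (1.07%) stood closer to the markers, with 8 of the 53 at the same or a higher share for each, so the part of background RNA in their counts there is not known.

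In T cells, Relb, Nfkb2 and Nfkbia were lower under BPTES, and no member was higher. Relb stood at 66.6 and 60.8 CPM under BPTES and at 114 and 123 under DMSO, resting on 667, 616, 1365 and 1586 UMIs. Every BPTES library lay below every DMSO library, and the gap was larger than the spread within either group. Relb fell by 0.90 on the log2 scale (SE 0.08, adjusted p = 0.021, edgeR's quasi-likelihood test with Benjamini-Hochberg adjustment over all genes tested in the class). The exact permutation test over 2 against 2 libraries cannot give a p below 0.333, for this or any other single gene.

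Nfkb2, the partner of Relb in the non-canonical arm, stood at 27.9 and 28.4 CPM under BPTES and at 43.8 and 45.5 under DMSO. It fell by 0.67 (SE 0.09, edgeR adjusted p = 0.047). Nfkbia stood at 267 and 241 CPM against 381 and 412, and fell by 0.64 (SE 0.09, edgeR adjusted p = 0.047). Neither gene's groups overlapped. These 3 calls among 10 genes compare with 0.170% of all 12956 genes tested in T cells.

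Rel, Birc3, Nfkb1 and Traf1 had no overlap between the groups in T cells but did not pass the adjusted threshold. Rel stood at 118 and 108 CPM against 156 and 182, a log2 difference of -0.58 (edgeR adjusted p = 0.085). Birc3 differed by -0.51, Nfkb1 by -0.46, Traf1 by -0.43, Nfkbiz by -0.33 and Tnfaip3 by -0.27. Rela was at 47.9 and 45.0 CPM against 49.6 and 45.7, a difference of -0.04 (SE 0.09) with overlapping groups. In all, 9 of the 10 genes had both BPTES libraries below both DMSO libraries, as did 25.4% of all genes tested in T cells. Their median log2 difference was -0.49, against -0.00 over all genes tested.

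**Figure D2:**
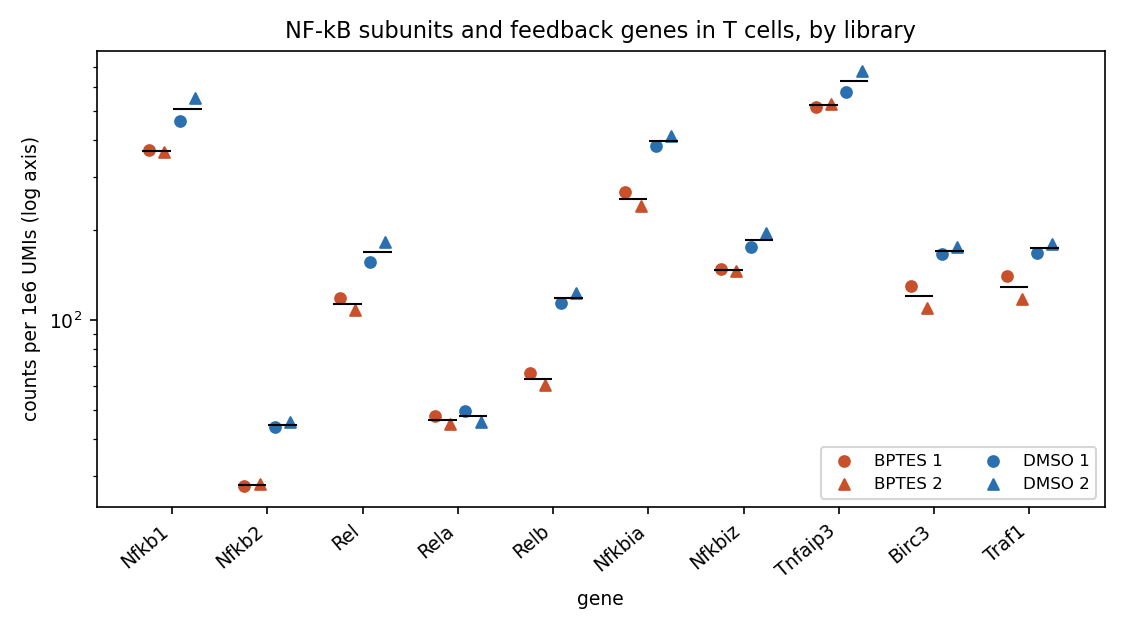
Level of each gene in T cells (counts per 1e6 UMIs, log axis) in the 2 BPTES and 2 DMSO libraries. Points are libraries and bars group means; 9 genes have both BPTES points below both DMSO points, and Rela has overlapping groups.

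The T cell calls rested on few libraries. Relb kept its direction in each fit, at -0.83 without BPTES replicate 2 and -0.83 without DMSO replicate 2. In these fits a lone library stood for its group, and Relb, Nfkb2 and Nfkbia all lost their calls. Fewer of all genes were called there too than with every library kept. Nfkb2 and Nfkbia also lost their calls with a mitochondrial limit of 25% (edgeR adjusted p = 0.058 for both) and with predicted doublets kept (0.083 and 0.081). Nfkb2 alone lost it under RLE scaling in place of TMM (0.051) and without cluster 36 (0.072). Macrophage markers moved with the groups in T cells: their summed level was 70.5 and 70.9 CPM under BPTES and 151 and 243 under DMSO, with all 8 markers detected, and their part in the result was not tested. Mature dendritic cell markers summed to 83.2 and 103 CPM under BPTES and to 71.0 and 65.5 under DMSO, the opposite order to Relb. Endothelial markers were lower (154 and 155 CPM against 169 and 176) and plasma cell markers higher (94.7 and 113 against 51.8 and 52.6). The part of these lists was not tested either. The 20 immediate early genes, which respond to tissue digestion, summed to 5304 and 5918 CPM against 5349 and 5427, and 0 of them were called.

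Within T cells, Relb had both BPTES libraries below both DMSO libraries in clusters 11, 13, 22 and 36. Cluster 11, which carried markers of CD4 T cells and 5 of 6 regulatory T cell markers, had Relb at 75.3 and 75.7 CPM under BPTES against 133 and 163 under DMSO. The log2 difference was -0.97 (SE 0.12, edgeR adjusted p = 0.017), and Relb was the 1 member called there, against 0.139% of all genes. The call was lost without BPTES replicate 1 (-0.97, edgeR adjusted p = 0.15) and without BPTES replicate 2 (-0.97, adjusted p = 0.40). Blocking on replicate number also ended it (-0.97, adjusted p = 0.072). Cluster 11 made up 30.5% and 27.7% of the T cells under BPTES and 34.3% and 39.5% under DMSO. At clustering resolution 2, a cluster led by Ctla4, Ikzf2 and Foxp3 among others held 91 and 66 cells with BPTES against 126 and 194 with DMSO. The part of these shares in the class values was not tested. Cluster 13, with CD8 T cell markers, had Relb at 32.2 and 42.6 CPM against 57.1 and 70.9. The difference of -0.78 did not pass (edgeR adjusted p = 0.24), and 0 members were called there against 0.00950% of all genes. At an unadjusted p below 0.05 there were 6 members and 1023 of all 10523 genes. DESeq2 called 0 members and 0.238% of all genes.

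Cluster 22, led by Il23r, Cd163l1, Trdc, Tcrg-C1 and Il17a and carrying gamma delta T cell markers, had the most members called. In it Relb fell by 0.96 (SE 0.13), from 173 and 193 CPM under DMSO to 103 and 82.1 under BPTES. Nfkbia fell by 0.88 (SE 0.10), from 609 and 533 CPM to 305 and 318. Nfkb1, Nfkb2, Rel, Birc3 and Traf1 fell as well, by 0.58 to 0.64, so that 7 of 10 members were called against 1.86% of all genes tested (edgeR adjusted p between 0.0014 and 0.048). DESeq2 called 3 of them, and 0.971% of all genes. Rela was higher without overlap there, at 57.4 and 56.5 CPM against 54.0 and 48.1, but was not called (edgeR adjusted p = 0.73).

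The smaller clusters were shallow or uneven. Cluster 27 held 110 to 145 cells a library but only 11 to 20 Relb UMIs, and its groups overlapped. In it 0 members were called against 0.0475% of all genes by edgeR, and the same by DESeq2. At an unadjusted p below 0.05 there were 0 members and 225 of all 4212 genes. Cluster 36 had under 50 cells in both DMSO libraries and was not tested. In it Relb stood at 51.3 and 42.6 CPM under BPTES and at 67.8 and 73.1 under DMSO. It made up 14.5% of the T cells of BPTES replicate 2 (exact 95% interval 12.3 to 16.8) and 3.44% to 6.57% in the other libraries. Without cluster 36, chosen after the data were seen, Relb differed by -0.88 (edgeR adjusted p = 0.012).

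Clusters 11 and 22 carried 5 and 4 of the 6 regulatory T cell markers. They also carried 5 of 5 markers of conventional CD4 and of gamma delta T cells, respectively. Together they held most Relb UMIs of T cells. Cluster 11 held 32.7% and 33.6% of them under BPTES and 39.6% and 53.2% under DMSO, and cluster 22 held 42.3% and 28.1% against 40.2% and 19.99%. Leaving both clusters out kept 461 and 570 BPTES cells and 501 and 561 DMSO cells. In these cells 0 members were called by edgeR, against 0.295% of all genes, and 4 had an unadjusted p below 0.05. The share of all genes at that level was 15.7% in the whole T cell class and was not counted in these cells. Relb was then at -0.64 (edgeR adjusted p = 0.087), Nfkb2 at -0.49 and Nfkbia at 0.04, on the other side of 0. Nfkbia in cluster 13 stood at 193 and 166 CPM against 171 and 200, with overlapping groups. Whether the effect on Nfkbia differed between T cell clusters was not tested.

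**Figure D3:**
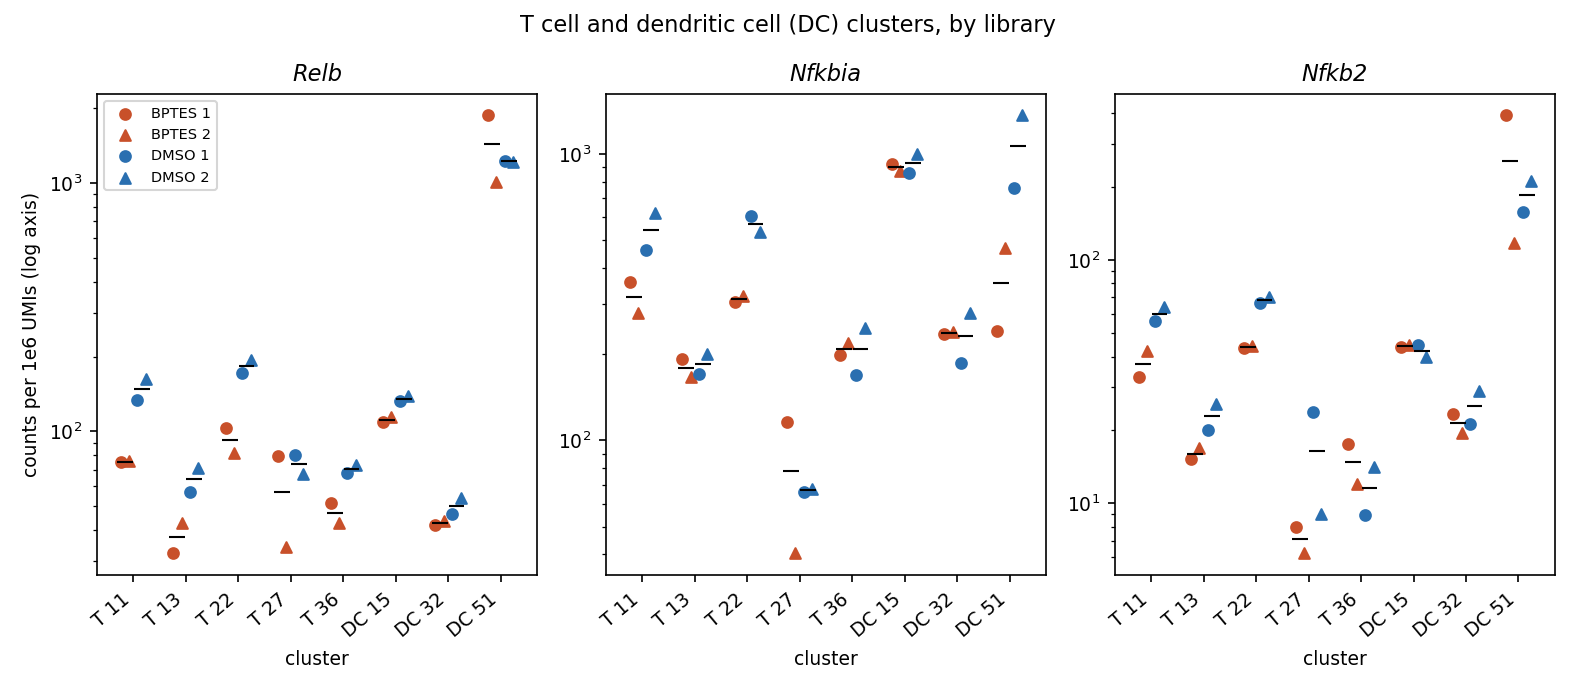
Relb, Nfkbia and Nfkb2 levels (counts per 1e6 UMIs, log axis) in 5 T cell clusters and 3 dendritic cell (DC) clusters. Points are libraries and bars group means; Relb is lower in both BPTES libraries in T cell clusters 11, 13, 22 and 36, and dendritic cell cluster 51 has the highest Relb levels, at few cells.

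In dendritic cells, Relb, Rel and Traf1 were lower under BPTES. Relb, which conventional dendritic cells need for their development and maturation, stood at 86.1 and 91.1 CPM under BPTES and at 162 and 147 under DMSO. It fell by 0.80 (SE 0.07, edgeR adjusted p = 0.0073). Rel stood at 509 and 541 CPM against 665 and 634, and fell by 0.31 (SE 0.06, edgeR adjusted p = 0.045). Traf1 stood at 148 and 152 CPM against 229 and 191, and fell by 0.49 (SE 0.09, edgeR adjusted p = 0.036). The groups did not overlap for any of the 3. The 3 calls compare with 4.52% of all 13117 genes tested. Relb was called without each library in turn, but Rel and Traf1 lost their calls without BPTES replicate 1 (edgeR adjusted p = 0.18 and 0.14), without BPTES replicate 2 (0.11 and 0.14) and without DMSO replicate 1 (0.11 and 0.051). Clustering at resolution 2 gave larger differences for Rel (-0.49) and Traf1 (-0.76).

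Among the other 7 genes in dendritic cells, Nfkbia was at 635 and 606 CPM against 730 and 807, and Nfkb1 at 560 and 560 against 694 and 659. Both missed the threshold narrowly (edgeR adjusted p = 0.056 and 0.052). Rela differed by -0.09 (SE 0.08). In all, 9 of 10 genes had groups that did not overlap, against 28.0% of all genes tested with both BPTES libraries lower. Macrophage markers were also lower under BPTES in this class (summed level 2897 and 3213 CPM against 3989 and 6545, with all 8 markers detected). So were monocyte (830 and 777 against 877 and 912) and neutrophil markers (57.2 and 74.5 against 86.4 and 116). NK cell and mature dendritic cell markers were lower too. Plasma cell markers (112 and 138 against 90.9 and 105) and proximal tubule markers (105 and 136 against 83.7 and 89.5) were higher. The part of any of these in the result was not tested.

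A small cluster with mature dendritic cell markers made up a smaller share of the dendritic cells under BPTES. Cluster 51 was led by Il12b, Ccl22, Fscn1, Mreg, Il4i1 and Ccr7, and all 6 mature dendritic cell markers were detected in it. It held 1 and 5 BPTES cells but 31 and 24 DMSO cells. That is 0.309% (exact 95% interval 0.00781 to 1.71) and 1.63% (0.533 to 3.77) of the dendritic cells under BPTES, and 5.69% (3.90 to 7.98) and 5.91% (3.82 to 8.67) under DMSO. These intervals cover counting error only.

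Relb was concentrated in cluster 51, at 1227 and 1220 CPM in the DMSO libraries. Its cells gave 31.1% and 24.2% of the Relb UMIs of all dendritic cells under DMSO and 6.16% and 7.99% under BPTES. Traf1 stood at 1044 and 965 CPM there under DMSO, and Rel at 1103 and 1396. The 6 BPTES cells had Relb at 1871 and 1005 CPM, resting on 62 and 77 UMIs, which gives no comparison.

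Without cluster 51, Relb in dendritic cells fell by 0.48 (edgeR adjusted p = 0.014), and Rel (-0.27, adjusted p = 0.065) and Traf1 (-0.31, adjusted p = 0.070) were no longer called. Within single clusters the differences were smaller. Cluster 15, with markers of type 2 conventional dendritic cells, had Relb at 109 and 114 CPM against 132 and 139, a difference of -0.28 (SE 0.08, edgeR adjusted p = 0.12). Cluster 32, with markers of type 1 conventional dendritic cells, had Relb at 42.0 and 43.5 CPM against 46.6 and 53.9, a difference of -0.24 (SE 0.13). Cluster 15 had 0 members called against 0.471% of all genes, and cluster 32 had 0 against 0.0364%. At an unadjusted p below 0.05, cluster 15 had 1 member and 2274 of all 12323 genes. Cluster 32 had 0 members and 1511 of all 11004 genes. DESeq2 called 0 members in both, and 2.17% and 0.373% of all genes. Cluster 15, the richer in Relb of these, made up 64.2% and 62.4% of the dendritic cells under BPTES and 78.3% and 67.7% under DMSO.

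In innate lymphoid cells, whose leading genes included Areg, Il1rl1, Gata3 and Calca, Relb was the 1 member called, against 0.342% of all genes. It stood at 106 and 95.2 CPM under BPTES and at 166 and 183 under DMSO, and fell by 0.78 (SE 0.15, edgeR adjusted p = 0.043). The groups did not overlap. These sums rest on 143 and 97 BPTES cells and 61 and 50 DMSO cells, and Relb on 132 to 210 UMIs a library. DESeq2 did not call it (adjusted p = 0.31), nor did edgeR when either BPTES library was left out. The call was also lost with predicted doublets kept and with replicate number as a block. Nfkb2 stood at 47.6 and 37.5 CPM against 66.4 and 82.1, and Traf1 at 89.0 and 82.2 against 129 and 143, both without overlap and not called (edgeR adjusted p = 0.19 and 0.12). Nfkbia overlapped between the groups, at 1827 and 1068 CPM against 1495 and 1379. Monocyte markers in this class summed to 101 and 112 CPM under BPTES and to 246 and 245 under DMSO, with Chil3 at 0 and the other 7 detected. Dendritic cell markers summed to 14.9 and 1.45 CPM against 34.7 and 26.8, with Cd209a at 0 and the other 7 detected. B cell markers (9.23 and 8.70 CPM against 16.9 and 18.3, all 7 detected), neutrophil markers (9.23 and 11.6 against 12.9 and 13.4, Ly6g at 0) and endothelial markers (93.8 and 79.7 against 129 and 104, all 9 detected) were also lower without overlap. T cell markers (434 and 468 against 324 and 397, all 8 detected) and NK cell markers (8.72 and 9.42 against 1.98 and 2.44, 3 of 7 detected, with Ncr1, Klrb1c, Gzma and Klra8 at 0) were higher. Plasma cell markers were higher too (61.5 and 81.2 against 56.6 and 36.6, with Derl3 at 0 and 6 of 7 detected). The part of any of these lists in the result was not tested.

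In proximal tubule, Nfkbiz was the 1 member called, against 0.713% of all genes tested. It stood at 12.1 CPM with BPTES, in both libraries, and at 18.2 and 19.97 with DMSO, on 1145 to 2163 UMIs. It fell by 0.66 (SE 0.09, edgeR adjusted p = 0.028), and the groups did not overlap. Nfkbia was at 22.4 and 22 CPM against 31.0 and 28.6 (-0.42, adjusted p = 0.078), and Relb at 2.04 and 2.14 against 3.96 and 2.90 (-0.72, adjusted p = 0.11). Birc3, Nfkb2, Rela and Tnfaip3, the last at a level near background, were also lower in both BPTES libraries, without a call. With the Traf1 counts, which cannot be told apart from background here, 8 of 10 genes had groups apart in that direction, against 28.8% of all genes. Rel overlapped between the groups, and Nfkb1 was higher without a call, at 25 and 27.4 CPM against 23.4 and 23.3 (adjusted p = 0.32).

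The immediate early genes were also lower in proximal tubule under BPTES. Their summed level was 330 and 349 CPM against 421 and 512, and 4 of 19 tested fell. The mean share of mitochondrial UMIs per cell was higher under BPTES in this class, at 19.0% and 21.5% against 16.3% and 18.0%. Summed neutrophil markers, whose class had the highest Nfkbiz level, were at 7.79 and 9.13 CPM against 11.2 and 10.1, monocyte markers at 27.8 and 22.1 against 32.9 and 31.5, and dendritic cell markers at 3.16 and 2.91 against 4.05 and 4.003, with every marker of the 3 lists detected. Endothelial markers were lower too (9.50 and 5.99 CPM against 9.98 and 12.8). Macrophage markers overlapped (362 and 408 against 363 and 387), as did T cell and mature dendritic cell markers. B cell markers (2.81 and 2.28 against 2.05 and 1.56) and plasma cell markers (119 and 123 against 114 and 93.6) were higher. NK cell markers were higher as well (0.720 and 0.740 against 0.621 and 0.424). The cells also fell differently into the clusters of this class. Cluster 1 held 1326 and 1619 BPTES cells against 896 and 966 DMSO cells, cluster 12 held 281 and 148 against 528 and 407, and cluster 50, led by the interferon-induced genes Ifit3 and Cxcl10 among others, held 14 and 6 against 34 and 23. The part of any of these in the Nfkbiz result was not tested. The call of Nfkbiz was lost without BPTES replicate 2 (edgeR adjusted p = 0.13), with a mitochondrial limit of 25% (0.059) and with predicted doublets kept (0.056), and its log2 difference lay between -0.72 and -0.60 without single libraries.

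No member was called by edgeR in the other 10 classes. In macrophages, where 1.75% of all genes were called, 5 members had an unadjusted p below 0.05, as did 23.7% of all genes, and DESeq2 called 2 members and 4.52% of all genes. Relb stood there at 59.5 and 56.2 CPM against 74.3 and 96 (-0.56, edgeR adjusted p = 0.083). Nfkbiz was at 504 and 462 CPM against 655 and 573, and Nfkb2 at 23.9 and 25.6 against 29.4 and 36.3. Rela (53.6 and 52.7 CPM against 49.2 and 46.8) and Traf1 (73.6 and 66.8 against 65.5 and 63.4) were higher in both BPTES libraries, by 0.15 and 0.12, without a call.

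In endothelium (0.711% of all genes called), 1 member, Traf1, had an unadjusted p below 0.05, as did 12.0% of all genes. DESeq2 called 0 members and 0.940% of all genes there. Traf1 stood at 5.55 and 5.56 CPM against 10.2 and 11.8 (-0.99, edgeR adjusted p = 0.061). Relb was at 65.9 and 88.2 CPM against 78.1 and 83.9, with overlapping groups. In monocytes (3.65%) all 10 genes had overlapping groups. At an unadjusted p below 0.05 there were 0 members and 23.4% of all genes, and DESeq2 called 0 members and 5.23% of all genes.

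B cells and cycling cells had 0% of all genes called in each. Both had 0 members at an unadjusted p below 0.05, against 14.1% and 7.14% of all genes. DESeq2 called 0 members in each, and 1.91% and 0.205% of all genes. Relb in B cells stood at 101 and 105 CPM under BPTES and 92.8 and 101 under DMSO, a difference of 0.08 (SE 0.13). The neutrophil class joined clusters 17 and 47. Cluster 47 was led by Adgre4 and Ear2, which also led a monocyte cluster, and held 48 and 42 cells with BPTES against 18 and 30 with DMSO, where cluster 17 held 208 and 201 against 227 and 293. Its cells had more UMIs (median 2.05 times that of their library, against 0.645 in cluster 17), and its part in the values was not tested. In neutrophils, where 0% of all genes were called, all 10 log2 differences were below 0, 4 members had an unadjusted p below 0.05 (8.84% of all genes did), and DESeq2 called 1 member and 0.569% of all genes. Traf1 in neutrophils was at 53.5 and 52.0 CPM against 92.3 and 154 (-1.23, edgeR adjusted p = 0.32). Nfkb1 was at 363 and 361 CPM against 517 and 1068, the last of these in DMSO replicate 2. That library differed in its neutrophils: at clustering resolution 2, a cluster led by Il1rn, Cxcl2, Cxcl3, Il1a and Ptgs2 among others held 225 of its cells and 25 to 43 of each other library, and a cluster led by S100a9 and Retnlg held 67 of its cells and 169 to 184 of each other library. Without DMSO replicate 2, Nfkb1 differed by -0.52 and Traf1 by -0.81. A lone DMSO library then stood for its group, so only these sizes are given.

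Principal and intercalated cells were small classes of 398 and 275 cells, and in the distal convoluted tubule DMSO replicate 2 stood apart for Relb and Birc3. In the distal convoluted tubule (0.105% of all genes called), Relb was at 6.30 and 6.53 CPM under BPTES, 4.23 in DMSO replicate 1 and 28.2 in DMSO replicate 2, on 8 to 143 UMIs. Birc3 there was at 18.9 and 15.8 CPM against 16.4 and 79.6. No member was called in the thick ascending limb (0.104% of all genes were), principal cells (0.117%) or intercalated cells (0.155%). Members at an unadjusted p below 0.05 numbered 2 of 10 in the distal convoluted tubule (14.2% of all genes), 3 of 9 in the thick ascending limb (6.28%), 4 of 9 in principal cells (12.2%) and 1 of 9 in intercalated cells (8.34%), and DESeq2 called 0 in each. The unadjusted counts in the first and the last of these are near the share of all genes. Of all genes, DESeq2 called 0.547%, 0.199%, 0.614% and 0.484%, in the same order. Traf1 was too low to be tested in the last 3 classes. In principal cells Relb was at 14 and 19.1 CPM against 39.2 and 26.3 (-0.98, edgeR adjusted p = 0.19), and in intercalated cells at 7.48 and 16.3 against 17.4 and 29.1.

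Over the 14 classes, 137 of 140 pairs of gene and class were tested, 8 were called, and all 8 were lower under BPTES. Of the 165120 pairs of any gene and class tested, 0.963% were called in either direction, and 23.8% had both BPTES libraries below both DMSO libraries (17.5% to 28.8% by class). Relb was called in 3 classes, more than any other member. It was lower in both BPTES libraries in 9 classes and overlapped in 5, and its log2 difference was below 0 in 13 of 14 classes with a median of -0.73. Nfkb2 was also apart and lower in 9 classes, Birc3 and Traf1 in 8, and Nfkbia and Nfkbiz in 7. Nfkb1 and Rel were so in 6, Rela in 5 and Tnfaip3 in 4. For Traf1 the 8 include proximal tubule, where its counts cannot be told apart from background. They also include the thick ascending limb, where Traf1 was too low to be tested. Rela had the median nearest to 0 (-0.06). The classes come from the same 4 libraries, so they do not repeat the comparison independently.

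**Figure D4:**
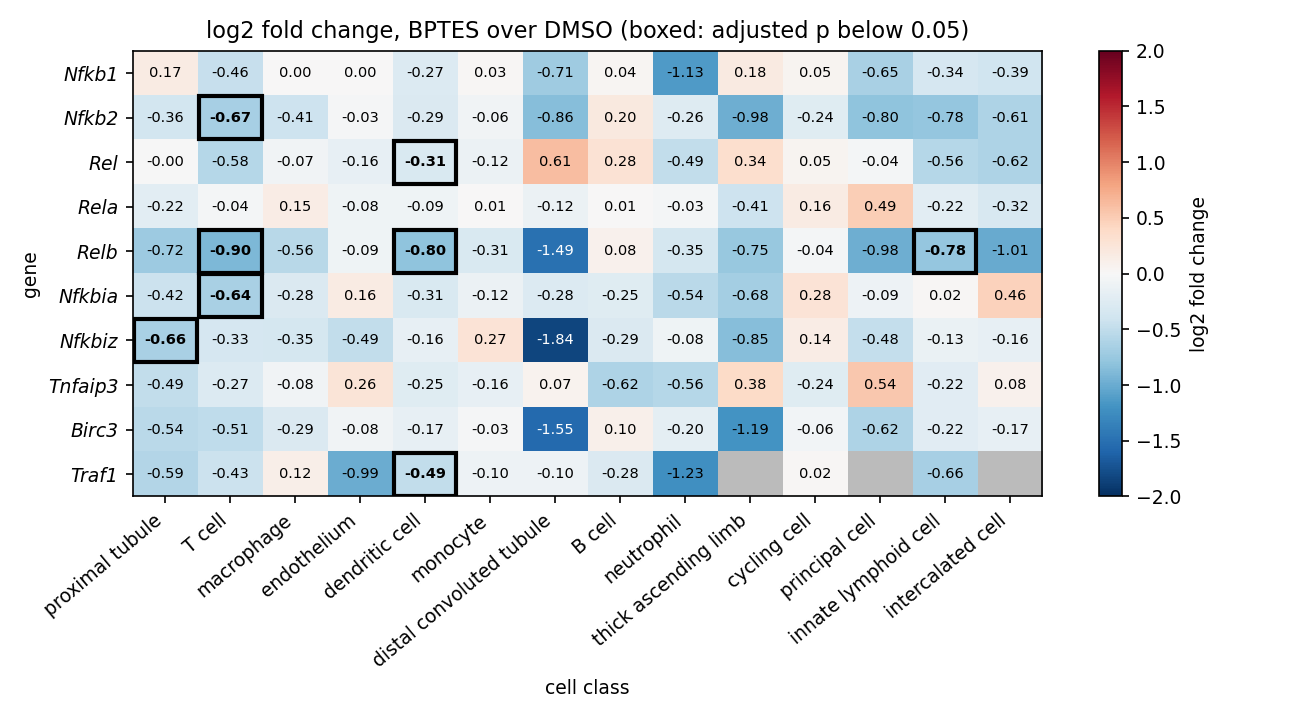
Log2 fold change (BPTES over DMSO) of the 10 genes in 14 cell classes, with the value in each cell; boxes mark an edgeR adjusted p below 0.05 and grey cells were not tested. The 8 boxed pairs are all below 0: 3 in T cells, 3 in dendritic cells, Relb in innate lymphoid cells and Nfkbiz in proximal tubule.

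Summing all CD45-positive classes gave 4 members called, all lower, against 6.22% of all genes. Relb stood at 69.5 and 69.0 CPM under BPTES and at 102 and 113 under DMSO, and fell by 0.64 (SE 0.06, edgeR adjusted p = 0.015). Traf1 fell by 0.46, Rel by 0.35 and Nfkb2 by 0.31, and Rela differed by -0.01. When either BPTES library was left out, the member calls in this sum were lost, and far fewer of all genes were called. Members were called when either DMSO library was left out. In each of these fits a lone library stood for its group. In the sum of CD45-negative classes, 0 members and 0% of all genes were called, although all 10 log2 differences were below 0 and 7 had an unadjusted p below 0.05, as did 2451 of all 18428 genes. DESeq2 called 3 there (2.82% of all genes), and edgeR called 8 without DMSO replicate 1 (2492 of all 19173 genes). These sums also carry the differing shares of the classes.

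Whether the effect of BPTES differed between T cells and another class was tested as an interaction with library as a block. Nfkbia was the 1 member past the threshold, between T cells and endothelium: it stood at 341 and 383 CPM against 297 and 351 in endothelium, and its effect in T cells was lower by 0.78 on the log2 scale (SE 0.13, edgeR adjusted p = 0.027, with 0.287% of all genes called). Relb's effect in T cells minus that in endothelium was -0.78 (SE 0.16, adjusted p = 0.099), and minus that in B cells -0.98 (SE 0.15, adjusted p = 0.097, with 0.00764% of all genes called). Against dendritic cells Relb's difference was -0.07 (SE 0.13, with 0.0357% of all genes called), against proximal tubule -0.14 (SE 0.20) and against macrophages -0.35 (SE 0.12), with 0% of all genes called in the last 2 comparisons. None of these differences in Relb passed with all 4 libraries. The difference from B cells passed at nearly the same size without DMSO replicate 1 (-0.98, adjusted p = 2.0e-06) and without DMSO replicate 2 (-0.97, adjusted p = 3.7e-05), and not without BPTES replicate 1 or 2 (adjusted p = 0.68 and 0.78). The difference from endothelium was -1.04 without BPTES replicate 1. For both, passing the threshold depended on which library was left out. In these fits a lone library stood for its group, so they are not read as evidence of a difference.

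Other genes of the pathway were read from a list of 80 (ligands, receptors, adaptors and kinases, other inhibitors and brakes, and induced targets). In T cells 73 were tested, and 2 fell while 0 rose (15 fell and 7 rose among all 12956 genes): Cd83, an activation marker, from 34.8 and 43.7 CPM under DMSO to 13.9 and 12.4 under BPTES (log2 -1.58, SE 0.15, edgeR adjusted p = 0.021), and Bcl2a1b, a survival gene of the Bcl2 family. The median log2 difference of the 73 was -0.30, against -0.00 over all genes. Bcl2a1b fell by 0.59, and reads of the near-identical copies Bcl2a1a, Bcl2a1b and Bcl2a1d may have been divided between them, so that each is uncertain alone. More pathway genes were called in T cells when replicate 1 of either group was left out, and fewer when replicate 2 was. Calls over all genes moved the same way in each of these fits.

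In dendritic cells 14 of 80 pathway genes fell and 0 rose, where 318 of all 13117 genes tested fell and 275 rose. The 4 with the smallest p were Bcl2a1b (-1.17), the stress gene Gadd45b (-0.88), Bcl2a1d (-0.75) and the chemokine Ccl22 (-2.77). Ccl22 stood at 14.9 and 22.1 CPM under BPTES and at 128 and 123 under DMSO, and is one of the genes that lead the mature cluster. Within cluster 15 it also fell, from 96.9 and 104 CPM to 22.1 and 19.7 (log2 -2.27, edgeR adjusted p = 2.5e-04), as did 5 other pathway genes.

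In macrophages 6 of 79 fell and 0 rose (165 fell and 75 rose among all 13741 genes), among them the monocyte-attracting chemokine Ccl2 (34.4 and 32.3 CPM against 151 and 173, log2 -2.28, edgeR adjusted p = 9.4e-04), Bcl2a1b (-0.78), the adhesion molecule Vcam1 (-0.72) and the interferon-induced chemokine Cxcl10 (-0.91). Pathway calls in macrophages were fewer when either BPTES library was left out and more when either DMSO library was. Calls over all genes moved the same way. Without BPTES replicate 2 every call was lost, over all genes too. In monocytes 5 of 78 fell and 1 rose (195 fell and 252 rose among all 12263 genes). These pathway calls were fewer when either BPTES library was left out, as were calls over all genes. They were more when either DMSO library was left out. Calls over all genes then stayed near the same share without DMSO replicate 1 and rose without DMSO replicate 2. Cluster 18, led by Fn1 and Chil3, held 219 and 211 BPTES and 333 and 114 DMSO cells, and cluster 21, led by Adgre4 and Ear2, held 242 and 190 against 176 and 88, so the mix of the class differed between libraries and its part was not tested. Gadd45b (-0.81), the ligand Il1a (-3.86) and its receptor Il1r1 (-2.84) fell. So did Bcl2a1b (-0.96). Ikbkb, the kinase that releases canonical NF-kB, rose by 0.67 (253 and 288 CPM against 155 and 187), and was chosen after its value was seen.

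In proximal tubule 5 of 75 fell and 0 rose (70 fell and 44 rose among all 15998 genes). These calls were lost without BPTES replicate 2, and more pathway genes were called when either DMSO library was left out. Calls over all genes fell and rose in the same fits. The 4 with the smallest p were Vcam1 (0.249 and 0.233 CPM against 1.55 and 2.13), the chemokine Cxcl1 (0.0882 and 0.148 against 0.867 and 0.968), the atypical IkB protein Bcl3 (4.31 and 3.97 against 9.54 and 8.29) and Ccl2 (0.0962 and 0.127 against 0.455 and 0.891). As a share of the level in the CD45-positive sum, Ccl2 stood at 0.730%, with 9 of the 53 leukocyte markers at the same or a higher share and their median at 0.474%, so its counts cannot be told apart from background RNA of leukocytes. The other 4 called genes stood at 2.52% to 16.3%, with 2 to 6 of these markers at the same or a higher share. Endothelial markers in proximal tubule summed to 9.50 and 5.99 CPM against 9.98 and 12.8. Outside the class, cluster 43, led by C3 and Havcr1 among others, held 12 and 16 BPTES cells against 81 and 81 DMSO cells. Cluster 44, led by Kcnip4 and Cp among others, held 6 and 8 against 55 and 119. The part of RNA from such cells in these values was not tested. In endothelium Vcam1 fell by 1.02 (157 and 141 CPM against 261 and 344), and the survival gene Bcl2l1 rose by 0.57 (144 and 141 against 97.7 and 95.1), among 62 tested (51 fell and 42 rose among all 13080 genes). These calls were fewer when either BPTES library was left out and more without DMSO replicate 1, as were calls over all genes. Without DMSO replicate 2 only lower pathway genes were called, and fewer of all genes were called. Cluster 26 of the endothelium, led by Sema3d, Selp and Plvap, held 113 and 64 of 830 and 498 BPTES cells and 134 and 237 of 757 and 990 DMSO cells, and its part was not tested. The median of the pathway genes was -0.05 in endothelium and -0.23 in proximal tubule. In B cells, where the median was -0.20, 0 of 72 pathway genes were called by edgeR and 23 had an unadjusted p below 0.05, as did 14.1% of all genes tested in B cells.

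Across the 14 classes, the genes whose mean level was most like that of Relb were Tox4 (Pearson r = 0.98), Nfkb2 (0.97), Trim12c (0.97) and Tapbp (0.96), among 11359 genes with at least 20 CPM in at least 1 class. For Nfkbia they were Csrnp1 (0.97), Coq10b (0.97), Arf4 (0.96) and Fosl2 (0.96). These correlations are over log2 class means that share libraries and depth, and are descriptions. Among the 45 pairs of members, Nfkb2 and Relb had the highest correlation, and Rel and Tnfaip3 the lowest (0.75).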

How the data were processed

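Libraries were made with 10x Genomics GEM-X 3' chemistry, per the labels' protocols. The deposited tables give each gene's raw UMI count in each barcode. Cell Ranger 8.0.1 and the build mm10 are named in the submitters' processing notes, and their settings are not given in the sources used here. The authors' tables hold 31054 features, of which the added tdTomato sequence was left out. Barcodes were kept with at least 500 UMIs, 300 genes and at most 50% mitochondrial UMIs, and Scrublet's highest-scoring cells (0.4% per 1000 barcodes, 3867 in all) were removed. Scrublet's own threshold marked 638. Leiden clustering at resolution 1 (scanpy 1.11.5, 3000 variable genes, 40 components, 15 neighbours) gave 51 clusters, named from marker lists.

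Counts summed per library and class were tested with edgeR 4.0.16 (quasi-likelihood, robust, TMM, filterByExpr, R 4.3.3); p-values were adjusted by Benjamini-Hochberg over the genes of a class and called below 0.05. SEs are the absolute log2 fold change over the root of F. The fits were tested on simulated data. Totals per class and library ranged from 820274 to 123600612 UMIs, and low sums limit precision. Alternatives were DESeq2 1.42.0, RLE scaling, no low-count filter, a replicate block, doublets kept, a 25% mitochondrial limit, resolution 2, omission of single libraries, and leaving out subset clusters. Added after seeing the data were T cells without cluster 22 or 36 and B cells without cluster 49, among whose leading genes are macrophage genes. Named are the 10 members, up to 4 called pathway genes with the smallest p in T cells, macrophages, dendritic cells, monocytes, proximal tubule and endothelium, and the 4 genes most like Relb and Nfkbia across classes. Members and lists were chosen with earlier results of these data known.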

Additional observations from a re-analysis of the deposited data

Results flagged for a closer look

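The effect of BPTES on Nfkbia differed between T cells and endothelium by -0.78 on the log2 scale (edgeR interaction, adjusted p = 0.027), with both BPTES libraries lower in T cells and overlapping groups in endothelium. Without the clusters with regulatory T cell markers, Nfkbia was no longer lower in T cells, and the interaction was not tested in those cells. The call of Nfkbia in T cells was also lost with the stricter mitochondrial limit and with predicted doublets kept.

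Some members were higher in both BPTES libraries in some classes and lower in both in others. None of the higher values was called, and such differences were tested only for T cells against macrophages, dendritic cells, B cells, proximal tubule and endothelium. Nfkb1 was higher in proximal tubule (0.17), and lower in dendritic cells, distal convoluted tubule, neutrophils, principal cells and intercalated cells. It was also lower in T cells, where the tested difference from proximal tubule was -0.58 (edgeR interaction, adjusted p = 0.17). Rel was higher in the distal convoluted tubule (0.61), on 9 to 49 UMIs a library, and lower in T cells, macrophages, dendritic cells, neutrophils, innate lymphoid cells and intercalated cells. Rela was higher in macrophages (0.15) and principal cells (0.49), and lower in proximal tubule, endothelium, dendritic cells, thick ascending limb and innate lymphoid cells. Traf1 was higher in macrophages (0.12), and lower in endothelium, dendritic cells, B cells, neutrophils and innate lymphoid cells. In proximal tubule Traf1 was lower too, at counts that cannot be told apart from background. It was also lower in T cells, where the tested difference from macrophages was -0.56 (edgeR interaction, adjusted p = 0.11). Without DMSO replicate 1, where a lone DMSO library stood for its group, that difference was -0.62.

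Between clusters of 1 class, Rela was higher in T cell clusters 13 (0.21) and 22 (0.14) and lower in clusters 11 and 27. Nfkb1 was higher in dendritic cell cluster 32 (0.069) and lower in cluster 15. These differences were not tested.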

How the results depend on the processing

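Relb in T cells kept its direction in all 14 alternatives (-0.96 to -0.64), between -0.96 and -0.83 without single libraries. Its call was lost when replicate 2 of either group was left out and without the clusters with regulatory T cell markers (-0.64, where 0 members were called in T cells), and was kept without cluster 22 or 36. Relb in dendritic cells was called in all 12 alternatives. Over the 14 classes, the 8 called pairs of member and class became 17 with DESeq2 and 35 with no low-count filter, and lay between 1 and 29 without single libraries. Calls over all genes moved too, from 0.963% to 2.17% and 4.41%, and lay between 0.180% and 5.22%. The 35 called pairs of pathway gene and class became 67 and 157, and lay between 12 and 153. Of 129 uncalled pairs of member and class, 53 changed sign in at least 1 alternative.

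With DESeq2, members called were 3 in proximal tubule, 6 in T cells, 2 in macrophages, 5 in dendritic cells, 1 in neutrophils, 0 in innate lymphoid cells, 3 in the CD45-negative sum, 2 in T cell cluster 11 and 3 in T cell cluster 22, while calls over all genes rose to 5.33% in proximal tubule and 0.911% in T cells. Of all genes it called 4.52% in macrophages, 5.47% in dendritic cells, 0.569% in neutrophils and 0.365% in innate lymphoid cells. The share was 2.82% in the CD45-negative sum, 0.333% in T cell cluster 11 and 0.971% in T cell cluster 22. With no low-count filter members called were 4 in proximal tubule, 8 in T cells, 5 in macrophages, 2 in endothelium, 5 in dendritic cells, 2 in distal convoluted tubule, 2 in neutrophils, 1 in thick ascending limb, 3 in principal cells, 3 in innate lymphoid cells, 1 in dendritic cell cluster 15, 7 in T cell cluster 11 and 1 in T cell cluster 13, while calls over all genes rose to 8.50% in proximal tubule, 2.16% in T cells and 10.3% in macrophages. They were 3.06% in endothelium, 7.26% in dendritic cells, 2.64% in distal convoluted tubule and 1.64% in neutrophils. In thick ascending limb they were 0.844%, in principal cells 3.05% and in innate lymphoid cells 1.51%. Among the clusters they were 6.06% in dendritic cell cluster 15, 2.38% in T cell cluster 11 and 1.14% in T cell cluster 13. With a 25% mitochondrial limit members called were 0 in proximal tubule (0.430% of all genes called). At that limit they were 1 in T cells (0.0698%) and 4 in dendritic cells (4.69%). With doublets kept they were 0 in proximal tubule (0.189%) and 1 in T cells (0.0596%). They were then 5 in dendritic cells (5.26%) and 0 in innate lymphoid cells (0.0762%). Without the mature cluster 1 was called in dendritic cells, against 4.81% of all genes. Resolution 2 left the T cells as they were.

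Replicate numbers are shared between the groups, but no label says that they pair libraries. The correlation of same-numbered deviations lay between -0.08 and 0.28 over the classes. With the number as a replicate block, Relb in T cells was at -0.90, the 8 pairs became 20 and the 35 became 83, while calls over all genes rose to 3.62% (16.2% in proximal tubule, 7.47% in distal convoluted tubule). Members called were then 5 in proximal tubule, 6 in T cells, 4 in distal convoluted tubule, 1 in neutrophils, 2 in thick ascending limb, 0 in innate lymphoid cells, 1 in the CD45-positive sum and 0 in T cell cluster 11. They were 2 in dendritic cells, where Rel lost its call (edgeR adjusted p = 0.053), and 5 in T cell cluster 22, where Nfkb2 (0.075) and Rel (0.061) did. Of all genes, 1.37% were called with this block in T cells, 0.724% in neutrophils and 3.05% in thick ascending limb. In dendritic cells 6.47% were called, in innate lymphoid cells 0.308% and in the CD45-positive sum 1.33%. The share was 0.0370% in T cell cluster 11 and 1.44% in T cell cluster 22.

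Without single libraries, the lone library of a group was assumed to vary like the others. The number of members called changed among these fits in all classes but cycling cells and intercalated cells. It also changed in both CD45 sums and in T cell clusters 11 and 13. Calls over all genes changed in the same fits. In macrophages, B cells, neutrophils, distal convoluted tubule and the CD45-negative sum, both were highest without DMSO replicate 1. The number of members whose effect in T cells differed also changed among these fits, against macrophages, B cells and endothelium. These numbers rest on that assumption and are not read as results about the members.

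Of the 11 classes in which Relb was not called, its value changed sign among the fits in 4. Without single libraries it lay between -0.30 and 0.12 in endothelium (0.12 without BPTES replicate 1), -2.12 and 0.59 in distal convoluted tubule (0.59 without DMSO replicate 2), -0.50 and 0.32 in cycling cells (0.28 without BPTES replicate 2, 0.32 without DMSO replicate 2) and -1.10 and 0.12 in T cell cluster 27 (0.12 without BPTES replicate 2). Relb in B cells was at -0.071 with doublets kept and 0.028 without cluster 49. Relb's effect in T cells minus that in dendritic cells lay between -0.20 and 0.059 (0.0044 without BPTES replicate 2, 0.059 without DMSO replicate 2), and minus that in proximal tubule between -0.45 and 0.14 (0.14 without DMSO replicate 2). Nfkbia in T cells, which was called, became 0.042 without the clusters with regulatory T cell markers. The cause of these changes was not tested. Levels without TMM scaling moved by less than the spread over libraries in all 140 pairs.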
